A study of Mus musculus with 10 samples.

Results

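The glucagon response of mouse hepatocytes with and without WDR5 knockdown was compared in 7 of the 10 libraries of the series, those that carried either the non-specific hairpin (shNS) or the hairpin against Wdr5 (shWDR5). They comprised 2 libraries of shNS with phosphate-buffered saline (PBS), 2 of shNS with glucagon, 1 of shWDR5 with PBS and 2 of shWDR5 with glucagon. All cells were primary hepatocytes of male C57BL6/J mice aged 10 weeks, infected with a hairpin adenovirus for 72 hours and then given 100 nM glucagon or PBS for 90 minutes. Each library pooled the RNA of 3 culture dishes, every group carried a hairpin virus, and no uninfected cells were among the samples. The 3 libraries with a hairpin against Kat2b (shKAT2B) stayed out of the comparison. They served to estimate the spread, to choose the responding genes and, in some fits, to estimate a difference between sets of libraries described below. The quantity compared is a difference of differences, named here the interaction: the glucagon response (glucagon minus PBS, in log2 intensity of an Affymetrix array) under shWDR5 minus that under shNS. A negative interaction of a raised gene means a smaller response under shWDR5.

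Glucagon binds a receptor on hepatocytes that raises cyclic AMP (cAMP), which activates protein kinase A and, in the nucleus, the transcription factor CREB with its CRTC coactivators. Early targets include the NR4A nuclear receptors, the coactivator Ppargc1a, enzymes that make and release glucose, and regulators that dampen the signal again, such as the kinase Sik1 and the phosphodiesterases of the Pde4 family. WDR5 is a core subunit of the complexes that methylate histone H3 at lysine residues near active promoters, and KAT2B is a histone acetyltransferase. The series asks how depletion of either protein alters hepatocyte gene expression, with and without the hormone.

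The targeted gene was lower in all 3 shWDR5 libraries. Wdr5 read 10.05 and 10.05 in shNS with PBS and 9.99 and 10.06 in shNS with glucagon, against 8.19 in the shWDR5 PBS library and 8.32 and 8.40 under shWDR5 with glucagon. The shWDR5 and shNS libraries did not overlap. Its interaction was 0.20, so the depth of the knockdown differed little between treatments. Hepatocyte genes were high in all libraries, with Alb, serum albumin, between 13.37 and 13.84 and the hepatocyte factor Hnf4a between 11.44 and 12.05.

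The libraries fell into 2 sets that no label names. After an additive model of hairpin and treatment, 1 component held 78% of the residual variance and separated the A libraries of shNS with PBS and of all 3 glucagon groups from the other 6. The lone shWDR5 PBS library carries the letter A, but over 46 genes that differed by at least 1 (log2) between letters in shNS and in shKAT2B it lay nearer to the B than to the A library of shWDR5 with glucagon in 44. Sets were assigned by the sign of the component, which placed this library in the second set. Its score, 0.058, was the smallest in size of all 10, against 0.139 to 0.417 for the other libraries of that set. The difference between sets enters the shWDR5 response unless it is modelled, and values with the library set depend on this placement. The main results below are given without and with the library set as a term of the fit, and several also from the second set alone, where each group has 1 library and no test is possible. Leukocyte and Kupffer cell markers moved with the sets. Their mean over 20 markers on the array (16 tested) lay between 8.20 and 8.47 in the first set, the 4 A libraries named above. It lay between 8.73 and 9.11 in the other 6 libraries. Endothelial markers were likewise lower in the first set, at 8.08 to 8.23 against 8.38 to 8.81. Stellate cell and fibroblast markers were higher there, at 8.65 to 8.76 against 8.33 to 8.42. The part of all these markers in the results was not tested. Of the defining leukocyte and Kupffer cell markers, Clec4f lay between 7.17 and 7.83 and Cd68 between 10.48 and 11.53. In such bulk RNA fewer cells of a type and less RNA per cell cannot be told apart.

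No gene passed the test for the interaction. Over 11481 genes, limma called 0 at an adjusted p below 0.05, or 0.0%, and the smallest adjusted p was 1.0. At an unadjusted p below 0.05 there were 17 genes with a lower response (0.148%) and 3 with a higher one (0.0261%). Once the library set was a term, the calls stayed at 0 and the smallest adjusted p was 0.234, with 152 genes lower (1.32%) and 103 higher (0.897%) at an unadjusted p below 0.05. The median standard error of an interaction was 0.22 without that term and 0.14 with it, and the median interaction over all genes was 0.02 and -0.01. A fit with the letter as replicate block called 550 genes, 304 higher and 246 lower, but that term places the lone PBS library with the A libraries, away from the set it resembles. Each value below therefore describes an estimate and its interval, and every shWDR5 response rests on a single PBS library.

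The amino acid transporter Slc7a2, the oxygen sensor Egln3 and the ephrin ligand Efna1 had the smallest unadjusted p among genes with a lower response in the fit without the library set. All 3 were higher with glucagon under both hairpins, and all 3 by less under shWDR5. They were known from earlier results on this table, so their rank is a description and adds no support.

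Slc7a2 imports arginine and other cationic amino acids. It read 9.55 and 9.55 in shNS with PBS and 11.64 and 11.66 in shNS with glucagon, against 10.53 in the lone shWDR5 PBS library and 11.93 and 11.93 in shWDR5 with glucagon. The shWDR5 PBS library stood far above both shNS PBS libraries, and the shWDR5 glucagon libraries lay a little above the shNS ones. The response was 2.10 ± 0.08 (standard error of the fit), or 4.29-fold, under shNS and 1.40 ± 0.10, or 2.64-fold, under shWDR5. The interaction was -0.70 ± 0.12 (95% interval -0.99 to -0.41; limma unadjusted p = 0.000746, adjusted p = 1.0). With the library set as a term it was -0.68 ± 0.10 (unadjusted p = 2.03e-05, adjusted p = 0.234), and in the second set alone -0.71. When that term was used with only the 7 libraries of shNS and shWDR5, an alternative chosen after the data were seen, Slc7a2 was the 1 gene called, with an adjusted p of 0.0379. Under the replicate block its adjusted p was 0.0052.

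Egln3 encodes a prolyl hydroxylase that marks hypoxia-inducible factor for destruction. It read 8.12 and 8.23 in shNS with PBS and 10.66 and 10.72 in shNS with glucagon, against 8.95 in shWDR5 with PBS and 10.44 and 10.78 in shWDR5 with glucagon. The PBS levels of the hairpins did not overlap, whereas under glucagon the shWDR5 libraries lay on either side of the shNS ones. The response was 5.72-fold under shNS and 3.16-fold under shWDR5, with an interaction of -0.86 ± 0.21 (limma unadjusted p = 0.00501) and, with the library set as a term, of -0.81 ± 0.16 (unadjusted p = 0.000301, adjusted p = 0.775). In the second set alone it was -0.66. The shKAT2B PBS library read 8.76, also above both shNS PBS libraries. The replicate block gave -0.90 with an adjusted p of 0.0128.

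Efna1 is a membrane-bound ligand of Eph receptors. It read 9.76 and 9.67 in shNS with PBS and 11.46 and 11.29 in shNS with glucagon, against 9.97 in shWDR5 with PBS and 10.95 and 11.02 in shWDR5 with glucagon. Here both treatments differed between hairpins without overlap, with PBS higher and glucagon lower under shWDR5. The response was 3.16-fold under shNS and 2.02-fold under shWDR5, and the interaction was -0.65 ± 0.15 (95% interval -1.0 to -0.29; limma unadjusted p = 0.00369). With the library set as a term it was -0.67 ± 0.12 (adjusted p = 0.631), in the second set alone -0.57, and under the replicate block -0.62 (adjusted p = 0.0176). Under shKAT2B the response in the second set was 0.52, smaller still.

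**Figure D1:**
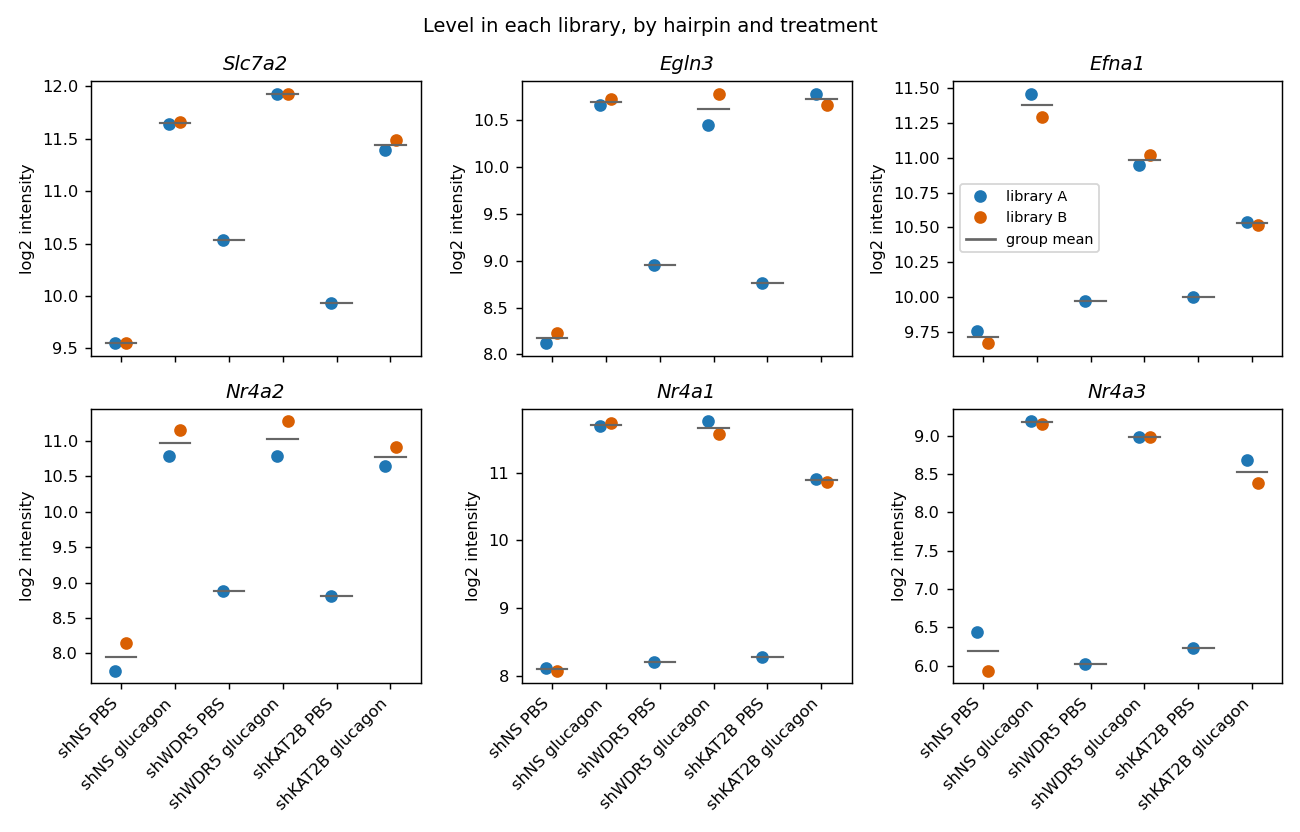
Level of 6 genes in each library (log2 intensity, vertical axis, a separate scale for each gene) by hairpin and treatment (horizontal axis). Points are libraries, blue for letter A and orange for letter B, and the short lines are group means. Slc7a2 in PBS reads 10.53 under shWDR5 against 9.55 and 9.55 under shNS, while Nr4a1 in PBS reads 8.20 against 8.12 and 8.07.

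The 3 NR4A genes encode orphan nuclear receptors and are early targets of CREB in liver. Their estimates of the interaction differed, and the difference among them was not tested. CREB binds the cAMP response element, whose full form TGACGTCA occurs in 1.79% of 32851 mouse promoter windows of RefSeq (GRCm38.p6), each running from 250 bases before to 50 bases after a gene's start. The 5-base core, TGACG or CGTCA on either strand, which may overlap the full form, occurs at least once in 20.8% of those windows and at least 4 times in 0.231%. The windows of Nr4a1, Nr4a2 and Nr4a3 each hold 4 cores and that of Egln3 holds 1. Any relation of the motif to the response was not tested, and the windows are shown as a description. Each is written on the gene's own strand, 5′ to 3′, with the cores in capitals. They lie at chr15:101266596-101266895 on the plus strand for Nr4a1, chr2:57123954-57124253 on the minus strand for Nr4a2, chr4:48045055-48045354 on the plus strand for Nr4a3 and chr12:54203825-54204124 on the minus strand for Egln3.
Nr4a1: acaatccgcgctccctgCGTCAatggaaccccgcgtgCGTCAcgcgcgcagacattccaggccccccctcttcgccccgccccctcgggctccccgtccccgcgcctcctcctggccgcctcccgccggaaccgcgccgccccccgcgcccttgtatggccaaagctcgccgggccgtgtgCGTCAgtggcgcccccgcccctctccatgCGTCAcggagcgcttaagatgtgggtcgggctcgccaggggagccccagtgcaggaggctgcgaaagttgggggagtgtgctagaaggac
Nr4a2: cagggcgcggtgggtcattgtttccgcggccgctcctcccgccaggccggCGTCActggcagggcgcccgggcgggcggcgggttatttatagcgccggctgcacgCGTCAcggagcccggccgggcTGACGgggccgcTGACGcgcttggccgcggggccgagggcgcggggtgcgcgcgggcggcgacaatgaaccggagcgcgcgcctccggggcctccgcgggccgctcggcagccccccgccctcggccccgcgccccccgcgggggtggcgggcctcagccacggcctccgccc
Nr4a3: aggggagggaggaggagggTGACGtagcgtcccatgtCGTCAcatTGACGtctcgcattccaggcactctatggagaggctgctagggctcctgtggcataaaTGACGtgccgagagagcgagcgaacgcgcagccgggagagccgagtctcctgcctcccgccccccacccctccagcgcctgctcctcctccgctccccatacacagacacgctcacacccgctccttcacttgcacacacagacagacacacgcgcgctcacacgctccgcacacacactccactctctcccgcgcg
Egln3: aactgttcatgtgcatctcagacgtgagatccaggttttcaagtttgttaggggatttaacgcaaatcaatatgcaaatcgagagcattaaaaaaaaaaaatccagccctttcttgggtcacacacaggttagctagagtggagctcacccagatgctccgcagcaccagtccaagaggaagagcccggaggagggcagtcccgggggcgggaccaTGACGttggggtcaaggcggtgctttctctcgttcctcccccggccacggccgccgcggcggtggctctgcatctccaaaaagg
The first core starts at position -233 from the gene's start in Nr4a1, -200 in Nr4a2 and -231 in Nr4a3, and the single core of Egln3 starts at -34. Letters that match a motif do not show that a factor binds there.

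Nr4a1 held its response. It read 8.12 and 8.07 in shNS with PBS and 11.69 and 11.73 in shNS with glucagon, against 8.20 in shWDR5 with PBS and 11.76 and 11.57 in shWDR5 with glucagon. Both hairpins overlapped under glucagon, and in PBS the shWDR5 library was only just above. The response was 12.3-fold under shNS and 11-fold under shWDR5, with an interaction of -0.15 ± 0.16 (95% interval -0.52 to 0.22) and, with the library set as a term, of -0.18 ± 0.12 (-0.44 to 0.09). The second set alone gave -0.29. Both intervals lie within 0.58 of 0, which is about a 1.5-fold difference.

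Nr4a2 differed in PBS. It read 7.75 and 8.15 in shNS with PBS and 10.79 and 11.15 in shNS with glucagon, against 8.88 in shWDR5 with PBS and 10.79 and 11.28 in shWDR5 with glucagon. The glucagon levels overlapped, and the PBS level under shWDR5 exceeded both shNS libraries. The response was 8.11-fold under shNS and 4.45-fold under shWDR5, and the interaction was -0.87 ± 0.35 (95% interval -1.70 to -0.03; limma unadjusted p = 0.0447). With the library set as a term it was -0.68 ± 0.12 (-0.95 to -0.41; unadjusted p = 0.000165, adjusted p = 0.631), in the second set alone -0.60, and under the replicate block -1.05 (adjusted p = 0.00279). The shKAT2B PBS library, at 8.81, lay nearly as high as that of shWDR5.

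Nr4a3 read 6.44 and 5.93 in shNS with PBS. The shWDR5 PBS library read 6.02, between them, and glucagon gave 9.19 and 9.16 under shNS against 8.99 and 8.99 under shWDR5. The response was 7.94-fold and 7.84-fold, and the interaction was -0.02 ± 0.29 without the library set, -0.12 ± 0.20 with it and -0.26 in the second set alone. Of these, the interval with the library set (-0.56 to 0.31) lies within 0.58 of 0, and that without it does not.

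Responding genes at large were chosen in shKAT2B libraries, which do not enter the estimate of the interaction without the library set. With that term over all 10 libraries, shKAT2B glucagon A and B also help to estimate the set difference, which enters the interaction. A gene counted as a responder where shKAT2B with glucagon (library B) differed from shKAT2B with PBS by at least 1 (log2), which gave 25 genes, 22 raised and 3 lowered. A response that is small under shKAT2B is left out by this choice, that of Efna1 (0.52) among them. Just inside the threshold lay Edn1 at -1.05 and Cep85l at 1.01, and just outside lay Cxcl1 at -0.97 and Rab30 at 0.96. A response was named smaller or larger where the 95% interval of the interaction lay wholly on that side of 0, held where the interval lay within 0.58 of 0, and unresolved otherwise. The intervals are not adjusted for the number of genes.

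The estimate was smaller under shWDR5 in 21 of the 25, but few intervals excluded 0. Without the library set, 4 responses were smaller (Slc7a2, Egln3, Nr4a2 and Sik1), 3 held (Nr4a1, Pde4b and Nefl), 0 were larger and 18 were unresolved. The count of smaller responses reached 8 without the B library of shWDR5 with glucagon. With the library set as a term, 11 were smaller, 5 held, 1 was larger and 8 were unresolved, and the estimate was smaller in 22. Across all tested genes that term gave 1.32% with a lower interaction at an unadjusted p below 0.05. Among the 22 raised genes the median response in the second set was 2.09 under shNS, 1.67 under shWDR5 and 1.55 under shKAT2B. The interaction in that set was lower for 19 and higher for 3 of them, with a median of -0.37, whereas all tested genes had a median of -0.04 with 6829 lower and 4454 higher.

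**Figure D2:**
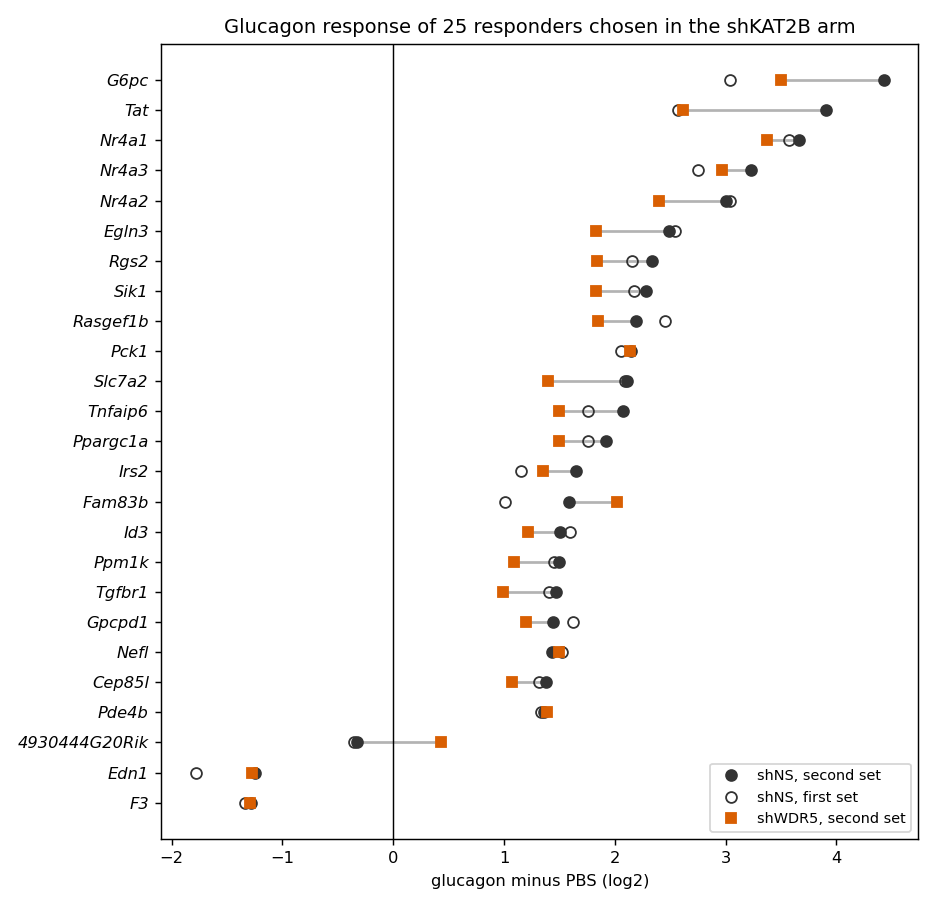
Glucagon minus PBS (log2, horizontal axis) of the 25 responders (rows, ordered by the shNS response in the second set). Filled circles are shNS and orange squares shWDR5, both in the second set with 1 library per group; open circles are shNS in the first set. Of the 22 raised genes, 19 have the square to the left of the filled circle.

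The genes that act on transcription and signalling gave both smaller and held responses. Sik1, a kinase that keeps CRTC coactivators out of the nucleus, read 9.75 and 9.60 in shNS with PBS and 11.92 and 11.88 in shNS with glucagon, against 9.87 and then 11.65 and 11.70 under shWDR5. The shWDR5 glucagon libraries were below both shNS ones. Its interaction was -0.42 ± 0.14 (limma unadjusted p = 0.0174), and -0.44 ± 0.11 with the library set. Ppargc1a, the coactivator of gluconeogenic genes, read 9.02 and 8.85 in shNS with PBS and 10.78 and 10.77 in shNS with glucagon, against 9.45 and then 10.97 and 10.95 under shWDR5. It was higher under shWDR5 in both treatments, and its interaction was -0.33 ± 0.17 without the library set and -0.37 ± 0.12 (unadjusted p = 0.00885) with it. Both of its features on the array gave a smaller response, with interactions of -0.35 and -0.33.

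The regulators that dampen cAMP signals include the phosphodiesterases Pde4b and Pde4d, which degrade cAMP. Pde4b read 7.65 and 7.82 in shNS with PBS and 8.98 and 9.18 in shNS with glucagon, against 7.82 and then 9.27 and 9.21 under shWDR5, so that its PBS levels met and its glucagon levels were slightly higher. Its interaction was 0.08 ± 0.20 (95% interval -0.39 to 0.54), a held response. Pde4d, which was no responder at the threshold, responded by 0.99 under shNS and 0.55 under shWDR5, with an interaction of -0.44 ± 0.22 (-0.95 to 0.07) without the library set and -0.52 ± 0.13 (limma unadjusted p = 0.00252) with it. The difference between the phosphodiesterases was not tested. The signalling regulators Rgs2, an inhibitor of G proteins, and Rasgef1b, an activator of small GTPases, had interactions of -0.61 ± 0.40 and -0.40 ± 0.22, and of -0.43 ± 0.22 and -0.48 ± 0.14 with the library set. Of the 15 tested genes of cAMP feedback 0 were called, and 3 were lower (Sik1, Pde4d and Rasgef1b) and 2 higher (Crem and the kinase anchor Akap12) at an unadjusted p below 0.05 with the library set, with a median interaction of -0.01. Over all genes that fit gave 1.32% lower and 0.897% higher.

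The classical glucose and amino acid targets G6pc, Pck1 and Tat had wide intervals. G6pc, the enzyme that releases glucose, read 6.07 and 5.56 in shNS with PBS and 9.11 and 9.99 in shNS with glucagon, against 5.85 and then 7.86 and 9.35 under shWDR5. Library A of shWDR5 with glucagon lay below both shNS glucagon libraries, and library B lay between them. The response was 13.3-fold under shNS and 6.75-fold under shWDR5, with an interaction of -0.98 ± 0.80 and an interval from -2.88 to 0.92, or -0.69 ± 0.52 with the library set. It was -0.23 without the A library of shWDR5 with glucagon and -1.72 without the B library. Pck1, which makes phosphoenolpyruvate, had an interaction of -0.74 ± 0.73, or -0.41 ± 0.38 with the library set and -0.01 in the second set alone. The same 2 omissions gave 0.03 and -1.52.

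Tat, which degrades tyrosine, read 8.47 and 7.73 in shNS with PBS and 11.04 and 11.64 in shNS with glucagon, against 8.78 and then 10.80 and 11.40 under shWDR5. The glucagon libraries overlapped, and the shWDR5 PBS library was above both shNS ones. The interaction was -0.92 ± 0.50 (limma unadjusted p = 0.109) and, with the library set, -0.84 ± 0.39 (unadjusted p = 0.0524), so that neither interval excluded 0. With a library left out it ranged from -1.29 to -0.55. Of the 17 tested genes of gluconeogenesis and glucose release, 0 were called. With the library set 1, Ppargc1a, was lower at an unadjusted p below 0.05, against 1.32% lower and 0.897% higher over all genes. The median interaction of the list in that fit was -0.12.

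**Figure D3:**
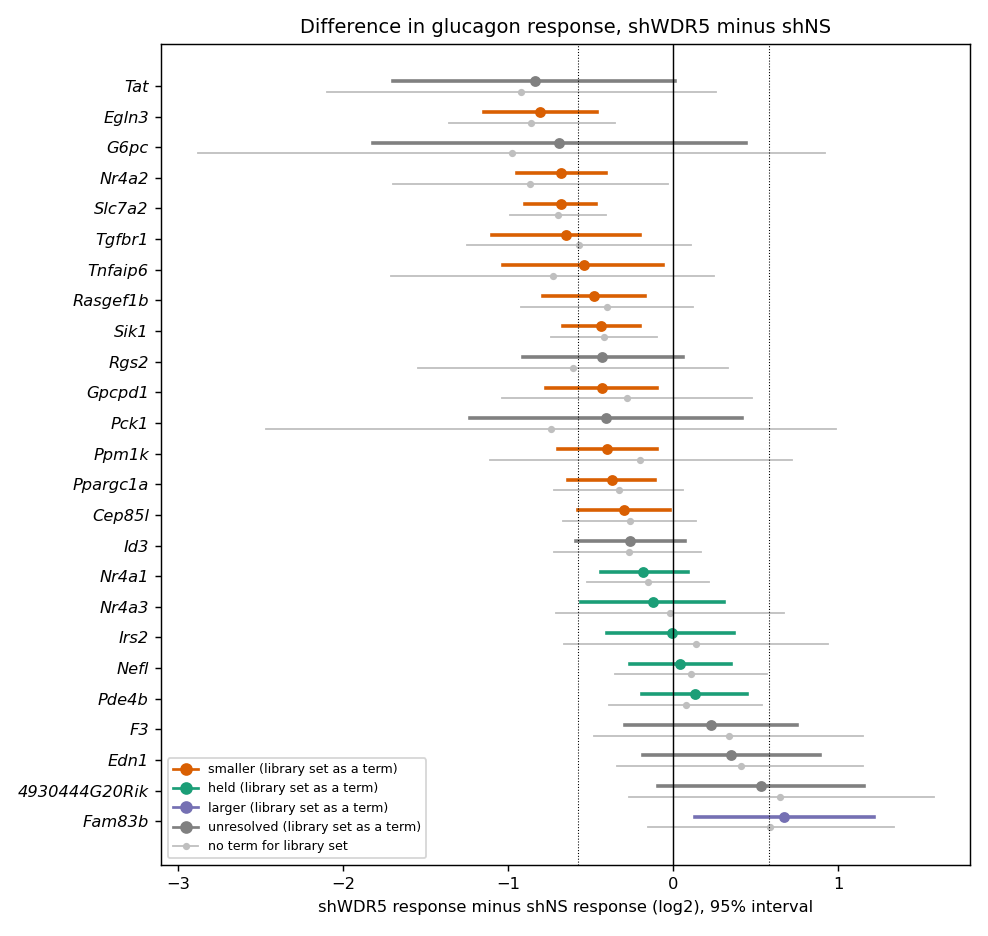
Interaction of the 25 responders (log2, horizontal axis; shWDR5 response minus shNS response), ordered by the estimate with the library set as a term. Thick coloured bars are 95% intervals with that term and thin grey bars without it; dotted lines stand at -0.58 and 0.58. The interval of Slc7a2 lies to the left of 0 in both fits, that of Nr4a1 lies between the dotted lines in both, and that of G6pc spans 0 in both.

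The list of amino acid transporters held 2 genes with an unadjusted p below 0.05 and a lower response without the library set, Slc7a2 and Slc16a10. Slc16a10, which carries aromatic amino acids, read 8.32 and 8.53 in shNS with PBS and 9.52 and 9.85 in shNS with glucagon, against 9.09 and then 9.42 and 9.81 under shWDR5. As in Slc7a2, the shWDR5 PBS library was above both shNS ones. Its glucagon levels overlapped. The interaction was -0.73 ± 0.31 (limma unadjusted p = 0.0498) and, with the library set, -0.58 ± 0.13 (unadjusted p = 0.00078). Of the 22 tested transporters 0 were called, 3 were lower (Slc7a2, Slc16a10 and the taurine transporter Slc6a6) and 0 higher at an unadjusted p below 0.05 with the library set, where all genes gave 1.32% and 0.897%, and the median interaction was -0.03. In amino acid catabolism and the urea cycle 2 of 20 were lower, Cbs at -0.35 ± 0.12 and Ftcd at -0.36 ± 0.12, and 0 were higher.

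Among insulin signalling genes, both receptor substrates were measured. Irs2 read 8.84 and 8.27 in shNS with PBS and 9.99 and 9.92 in shNS with glucagon, against 8.35 and then 10.08 and 9.70 under shWDR5, and the groups overlapped in both treatments. Its interaction with the library set was -0.01 ± 0.17 (95% interval -0.40 to 0.37), a held response, although the second set alone gave -0.30. Irs1 responded by 0.57 under shNS and 0.04 under shWDR5, with an interaction of -0.53 ± 0.27 (-1.17 to 0.12) without the library set, and of -0.59 ± 0.21 (limma unadjusted p = 0.0186) with the library set and a PBS level of 8.29 against 7.77 and 7.36. The difference between the 2 genes was not tested. Of 23 tested genes 0 were called and Irs1 was the 1 with an unadjusted p below 0.05 with the library set. That fit gave 1.32% lower and 0.897% higher over all genes.

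The CREB and cAMP targets held both kinds of response. Of 24 tested genes 0 were called, and 4 were lower (Nr4a2, Sik1, Ppargc1a and the AP-1 subunit Fosb) and 1 was higher at an unadjusted p below 0.05 with the library set. The background in that fit was 1.32% lower and 0.897% higher. The median response of the list was 0.51 under shNS and 0.52 under shWDR5, with a median interaction of -0.05 without the library set and -0.06 with it. In the second set the median responses were 0.55 and 0.29 and the median interaction was -0.17, against -0.04 over all genes. Crem, whose short product ICER represses CREB targets, was the higher one. It read 7.76 and 7.86 in shNS with PBS and 8.29 and 8.50 in shNS with glucagon, against 7.30 and then 7.99 and 8.34 under shWDR5. The PBS level under shWDR5 was below both shNS libraries, and the interaction was 0.28 ± 0.24 without the library set and 0.38 ± 0.15 (limma unadjusted p = 0.0257) with it.

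Fam83b was the 1 responder with a larger response, and only with the library set as a term. It read 6.49 and 6.16 in shNS with PBS and 7.50 and 7.75 in shNS with glucagon, against 6.09 and then 7.86 and 8.11 under shWDR5. The shWDR5 libraries were below shNS in PBS and above it under glucagon. The response was 2.46-fold under shNS and 3.72-fold under shWDR5, with an interaction of 0.59 ± 0.31 (limma unadjusted p = 0.10) and, with the library set, of 0.67 ± 0.25 (unadjusted p = 0.0199).

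The remaining responders ranged between these. With the library set the response was smaller for Tgfbr1 (a TGF-beta receptor) at -0.65 ± 0.20, for Tnfaip6 (a hyaluronan-binding secreted protein) at -0.54 ± 0.22, for Gpcpd1 at -0.43 ± 0.15, for Ppm1k (a mitochondrial phosphatase) at -0.40 ± 0.14 and for Cep85l at -0.30 ± 0.13. Nefl, the light neurofilament, held at 0.04 ± 0.14. Id3, an inhibitor of basic helix-loop-helix factors, was unresolved at -0.26 ± 0.15 and read 10.13 and 10.01 under shWDR5 with glucagon against 10.53 and 10.47 under shNS. Its groups did not overlap there. The 3 lowered responders were unresolved. F3 (tissue factor) and Edn1 (endothelin) had responses of -1.31 and -1.52 under shNS and -0.97 and -1.11 under shWDR5. Their interactions were 0.34 ± 0.34 and 0.41 ± 0.32, and 0.23 ± 0.24 and 0.35 ± 0.24 with the library set. In the second set alone these were -0.01 and -0.02. The third, 4930444G20Rik, responded by -0.34 under shNS and 0.32 under shWDR5 over both sets, with an interaction of 0.65 ± 0.39, or 0.53 ± 0.28 with the library set.

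The interaction can be split into the knockdown difference (shWDR5 minus shNS) in PBS and that under glucagon. The PBS difference is part of the interaction by which these genes were classed, so its sign is largely fixed by that choice, and the values are a description. In the fit with the library set as a term, the PBS difference of the 11 smaller responders was larger in size than the glucagon difference in 8. Over named genes the PBS difference was 0.96 ± 0.08 for Slc7a2, 0.74 ± 0.10 for Nr4a2, 0.73 ± 0.12 for Egln3, 0.56 ± 0.09 for Ppargc1a and 0.51 ± 0.10 for Slc16a10, but 0.10 ± 0.12 for Gpcpd1 and 0.07 ± 0.11 for Ppm1k, whose PBS level under shWDR5 lay between the shNS libraries. Under glucagon the differences of the first 5 were 0.28 ± 0.06, 0.06 ± 0.08, -0.08 ± 0.10, 0.19 ± 0.07 and -0.07 ± 0.08. Efna1 differed on both sides, at 0.28 ± 0.09 in PBS and -0.39 ± 0.07 under glucagon, and Sik1 at 0.21 ± 0.09 and -0.23 ± 0.07. Over the 22 raised responders the median difference was 0.17 in PBS, above 0 in 15, and -0.12 under glucagon, below 0 in 16. Of all 11481 tested genes, 6091 were above 0 in PBS and 5788 below 0 under glucagon. Every PBS difference uses the lone shWDR5 PBS library, so a deviation of that library would enter all of these genes and cannot be told apart from the knockdown.

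**Figure D4:**
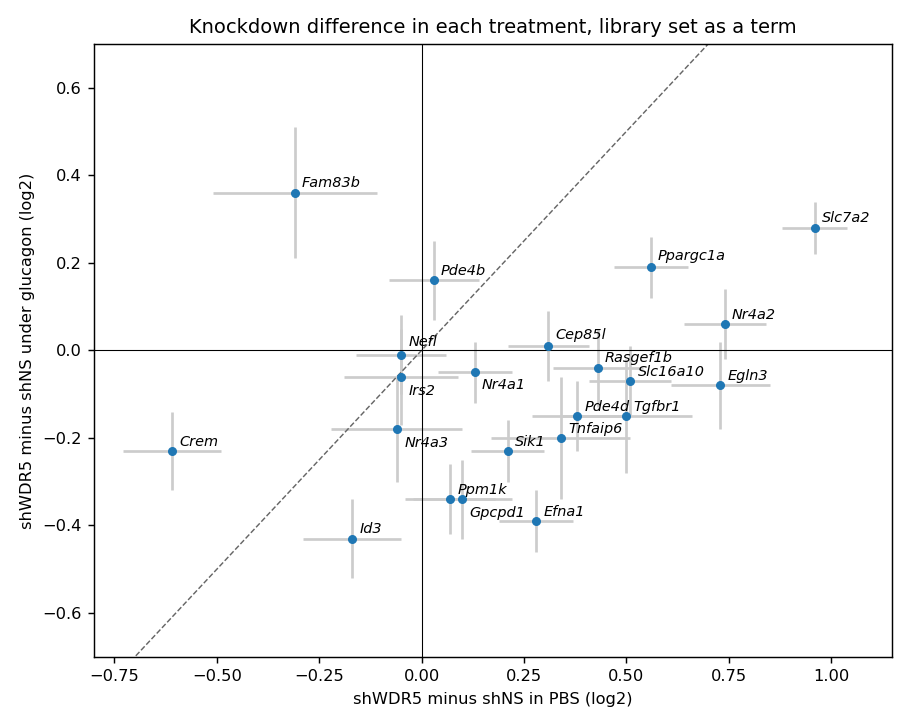
shWDR5 minus shNS in PBS (log2, horizontal axis) and under glucagon (log2, vertical axis) for 22 genes, from the fit with the library set as a term. Bars are standard errors, and genes below the dashed line of equality have a negative interaction. Slc7a2 lies farthest to the right at 0.96 in PBS and 0.28 under glucagon, and Crem farthest to the left at -0.61 and -0.23.

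The other gene groups shifted little. Over all 31 lists 0 members were called in either fit, and with the library set the lists' median interactions lay between -0.17 (cholangiocyte markers, 5 genes) and 0.13 (cell cycle and mitosis, 25 genes). Among 17 interferon-stimulated genes 4 were higher and 0 lower at an unadjusted p below 0.05 with the library set, namely Cxcl10 at 0.80 ± 0.28, Ifit1 at 0.47 ± 0.19, Rsad2 at 0.59 ± 0.24 and Oas1a, against 0.897% higher and 1.32% lower over all genes. Their median interaction was 0.36 without the library set, 0.10 with it and 0.03 in the second set. The leukocyte and Kupffer cell markers had a median of -0.30, 0.05 and -0.08 in the same order, and the endothelial markers -0.24, 0.00 and -0.12, so that these shifts were smaller with the library set as a term. The list of the glucagon receptor, adenylyl cyclase, protein kinase A, CREB and coactivators had 17 tested genes. That of WDR5 and its partners, Wdr5 itself included, had 24. Both lists had 0 members with an unadjusted p below 0.05 in limma in either direction.

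The short CREB motif was counted in the responders' promoters as a description. Of the 25 responders 20 matched a promoter window, and 11 of these held at least 1 core motif in any of their windows. The share over all single windows was 20.8%. The units differ, because a gene with several starts counts once and can match in any window, so the shares are not compared. The core was present in 5 of 8 smaller, 3 of 4 held, 0 of 1 larger and 3 of 7 unresolved responders, as classed with the library set. Efna1, with 2 annotated starts, had 0 cores in both windows.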

How the data were processed

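The series held 10 libraries in 6 groups. The deposited values are intensity on a linear scale, and the submitters' processing notes name Affymetrix Expression Console 1.1.1. How the arrays were normalized is not given in the sources at hand. Each deposited value was taken as log2 with no pseudocount. Of 26913 features, 17873 had 1 gene symbol, and each of the 16401 genes was represented by its brightest feature on average. The lowest 30% by mean were left out. The 6 group means entered a linear model in limma 3.58.1 (R 4.3.3) over all 10 libraries (eBayes with a trend, two-sided tests, Benjamini-Hochberg adjustment, threshold 0.05), with 4 residual degrees of freedom, so the lone shWDR5 PBS library is assumed to vary like the others. The fit without the library set was run on simulated data, with independent noise and planted interactions larger than those reported here. No library sets were simulated, so that run does not bear on them. The number of arrays limits the precision, and nothing in the labels says that A and B are separate animals, so the p-values reflect only how far these libraries differ, which may be technical. B minus A correlated between the 4 groups with both letters at 0.72 to 0.84, so the letters pair those libraries. Named genes were the known glucagon targets and Slc7a2, Egln3 and Efna1, up to 5 genes with the smallest p in each direction, up to 20 responders and up to 4 genes with the largest interaction of each of 31 lists; genes behind counts of 5 or fewer, and other members described, were named after their values were seen. The members, lists and library sets were chosen with earlier results of these data known. Promoter windows are those of RefSeq, GRCm38.p6. Slc7a2, Sik1, Crem and Nefl had no entry there. Alternatives covered normalization, filter, pseudocount, features, trend, block and left-out libraries.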

Additional observations from a re-analysis of the deposited data

Results flagged for a closer look

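In 8 of the 138 genes followed one by one, glucagon and PBS libraries differed in opposite directions under shNS and shWDR5. Every shNS glucagon library differed one way from both shNS PBS libraries, and both shWDR5 glucagon libraries the other way from the shWDR5 PBS library. Many of the 138 were chosen for a large interaction or a small p, which favours such genes. The share over all tested genes is not given, so the count is only a description. The difference was not tested apart from the interaction, whose adjusted p was 1.0 in limma. Cecr2, a bromodomain protein, had an interaction of -0.54, with responses of 0.26 under shNS and -0.28 under shWDR5 and a PBS level of 8.29 under shWDR5 against 7.64 and 7.55. D830025C05Rik had an interaction of -0.49, with responses of 0.22 and -0.27. Slfn10-ps, a pseudogene of the schlafen family whose probes may also detect its relatives, had an interaction of 0.43, with responses of -0.10 and 0.33. The responder 4930444G20Rik had an interaction of 0.65, with responses of -0.34 and 0.32.
Ftcd, an enzyme of histidine breakdown, had an interaction of -0.41. The P450 enzyme Cyp2d26 had one of 0.64 ± 0.53, or 0.44 ± 0.33 with the library set and 0.19 in the second set alone. Under shWDR5 it read 8.08 with PBS and 9.07 and 8.10 with glucagon, so that library B differed from PBS by only 0.02. Polr1a, the large subunit of RNA polymerase I, had an interaction of 0.20 and Nolc1, a nucleolar protein, one of 0.15. Their shNS responses were only -0.04 and -0.05.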

How the results depend on the processing

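The number of genes called for the interaction was 0 under the main setting and under every alternative with a test except the letter as replicate block, which gave 550, and the library set with only the 7 libraries of shNS and shWDR5, which gave 1. The number of smaller responses among the 25 responders was 4, and became 13 with the replicate block, 11 with the library set, 15 with the library set and only the 7 libraries (an alternative chosen after the data were seen), and between 3 and 8 when a library was left out. The highest value came without the B library of shWDR5 with glucagon; the lone shWDR5 PBS library could not be left out. Of 555 values of 30 genes under other settings 547 kept their sign. The 8 that turned were Nr4a3 at 0.09 and Ppm1k at 0.01 with the replicate block, F3 at -0.01 in the second set alone, and 5 with a library left out, where Nr4a3 ranged from -0.28 to 0.24, Pck1 from -1.52 to 0.03, Pde4b from -0.03 to 0.18 and Ppm1k from -0.41 to 0.01. Slc7a2 stayed between -0.72 and -0.68 over all settings. Responders chosen at 0.58 numbered 76, of which 5 were smaller and 9 held, or 19 and 34 with the library set. Over all tested genes the fit with the library set gave 1.32% with a lower and 0.897% with a higher interaction at an unadjusted p below 0.05.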

Other observations

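Of 21 tested hepatocyte identity genes, Tat among them, 16 had a lower and 4 a higher estimate in the second set, where 6829 of all tested genes were lower and 4454 higher. In limma 0 were called, and with the library set 3 were lower (Ahsg, Onecut1 and Prox1) and 0 higher at an unadjusted p below 0.05, with a median interaction of -0.14, against 1.32% lower and 0.897% higher over all genes. Onecut1, a liver transcription factor, responded by 0.70 under shNS and 0.22 under shWDR5, with an interaction of -0.56 ± 0.21 with the library set. Cyp2j5, an arachidonic acid epoxygenase, had an interaction of -0.64 ± 0.22 with the library set. Cyp2b10, a target of the receptor CAR, had one of 0.70 ± 0.25 in the same fit. Without that term these were -0.51 ± 0.35 and 0.92 ± 0.46, and in the second set alone -0.49 and 0.31. The 12 tested P450 genes had a median interaction of -0.02 with the library set.

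Among genes that glucagon lowered, Otud1, a deubiquitinase, responded by -0.90 under shNS and -0.46 under shWDR5, with an interaction of 0.44 ± 0.19 without the library set and 0.47 ± 0.14 with it. Klf6, a Kruppel-like transcription factor, responded by -0.88 and -0.48, with an interaction of 0.29 ± 0.12 with the library set. Zfp931, a zinc finger gene, was lowered under neither hairpin, with responses of 0.05 under shNS and 0.58 under shWDR5. It read 7.35 and 7.45 in shNS with PBS and 6.56 in the lone shWDR5 PBS library. Its interaction was 0.53 ± 0.15 (limma unadjusted p = 0.0103, adjusted p = 1.0). Saa3, an acute phase protein, responded by -0.04 under shNS, with an interaction of -1.13 ± 2.37 without the library set and 0.23 ± 0.43 with it.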
